A study of Caenorhabditis elegans with 12 samples.

Results

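Whole young adult XO and XX nematodes (Caenorhabditis elegans) were compared, 3 libraries of each, which were 6 of the 12 libraries of the series and were chosen by their sample titles. The other 6 libraries came from dissected gonads of the same kinds of animal and serve below only to sort genes by their level in the gonad. Every animal carried fog-1(q253)ts, a temperature-sensitive allele of a gene that germ cells need in order to become sperm, and was kept at 25 °C. XO animals therefore had a male body and XX animals a female body, and both made oocytes. XX animals of this genotype are not wild-type hermaphrodites, since they lack their own sperm, and XO animals are not wild-type males. Each replicate held at least 600 young adults picked by hand, although another sentence of the deposited protocol gives at least 750. Separate cultures are not mentioned in the labels. A p-value here measures the spread among these 6 samples, and that spread may be technical.

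Sex in C. elegans follows the ratio of X chromosomes to autosomes. In XO embryos xol-1 is on, HER-1 is secreted and the receptor TRA-2 is blocked, so that TRA-1, the transcription factor at the end of the pathway, is held down by the FEM proteins. In XX animals TRA-1 acts, and a condensin-like complex binds both X chromosomes in somatic cells and lowers their output. The male soma builds a tail for copulation with its own sensory neurons and muscles, and a gonad that makes seminal fluid. The female soma builds a uterus and vulva, and its intestine makes yolk.

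The XO libraries held from 7912618 to 14051532 gene counts and the XX libraries from 12765678 to 15363288. Replicate pairs had a chi-square per degree of freedom from 5.14 to 11.2, above sampling noise, so each library was kept as a sample of its own. The first principal component held 92.5% of the variance and separated XO from XX, and the second held 2.57% and set XO replicate 1 apart from the other 5 libraries. Reads with several places in the genome made up 12.8% to 14.2% of reads in XO and 17.6% to 20.3% in XX libraries. These reads were not counted to any gene. Levels are given as CPM, counts relative to library size, scaled by the trimmed mean of M-values and not by gene length, so they are compared between groups and not between genes. In whole animals, fewer cells of a type and less RNA per cell cannot be told apart.

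Of 12259 genes tested, 53.4% passed edgeR's quasi-likelihood test at a Benjamini-Hochberg adjusted p of 0.05. XO animals had the higher level for 3584 of them (29.2% of genes tested) and XX animals for 2962 (24.2%). With total counts in place of the trimmed mean as the scale, 5842 were higher in XO and 1585 in XX, and the median log2 fold change of all genes moved by 0.24. Of the passing genes, 2020 higher in XO (16.5% of genes tested) and 1057 higher in XX (8.62%) differed 2-fold or more. Differences of at least 16-fold among passing genes numbered 408 and 182. In 61.5% of genes the 3 libraries of one group all lay outside the range of the other.

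The mutated gene itself was higher in XO. fog-1, for an RNA-binding protein that germ cells need to turn to sperm, was at 295, 313 and 300 CPM in XO and 31.6, 30.9 and 28.7 in XX (3.32, SE 0.06). Since the allele is shared and is no deletion, the genotype cannot be read from this level. fog-3, its partner in that decision, was at 36.3, 35.6 and 39.4 CPM in XO and 3.4, 4.01 and 4.88 in XX (3.17, SE 0.13). Neither gene overlapped between the groups, which held for 61.5% of all genes tested. Of 9 regulators of germline sex, these 2 were higher in XO, 2 were higher in XX and 5 did not pass. gld-1, a translational repressor gene of the germline, was at 687, 683 and 677 CPM in XO and 953, 943 and 914 in XX (-0.46, SE 0.06), and nos-3 had -0.24 (SE 0.07), which no longer passed with total counts as the scale.

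**Figure D1:**
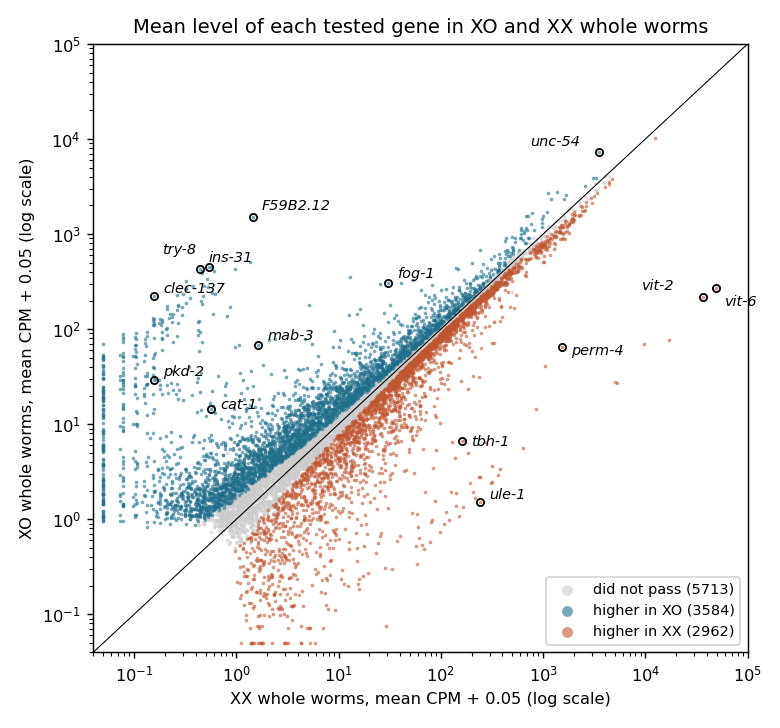
Mean CPM of each of the 12259 tested genes in the 3 XX libraries (x axis) and the 3 XO libraries (y axis), both on log scales with 0.05 added, coloured by the test. The 408 genes at least 16-fold higher in XO form the upper left cloud, and yolk genes such as vit-2 and vit-6 lie far to the right of the diagonal.

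Genes higher in XO were mostly genes with little RNA in the gonad. Of the 2020 genes at least 2-fold higher in XO, 77.6% were under 1 CPM in both gonad groups, against 32.4% of those higher in XX and 31.5% of all genes tested. Genes under 1 CPM in both gonad groups had a median log2 fold change of 0.75, and 67.4% of them passed, 54.4% higher in XO and 13% higher in XX. This class took 3.61% ± 0.0948 of counts in XO and 1.87% ± 0.0645 in XX libraries (SD, n = 3 each, exact 2-sided permutation p = 0.1, the smallest that 3 against 3 libraries allow). Genes at 5 CPM or more in either gonad group had a median of -0.08, and 43.2% of them passed, 11.7% higher in XO and 31.6% higher in XX. The lists of somatic genes below are to be read beside the first of these medians, although some hold few or no members of that class.

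Among the 15 largest rises in XO animals, by the limits given below, the named genes were of the clec, ins and scl families. The others have no name. The C-type lectin gene clec-137, of a family of sugar-binding-domain proteins, was at 233, 220 and 213 CPM in XO and at 0.166, 0.0854 and 0.0697 in XX libraries. Its log2 fold change was 10.91 (SE 0.14), with adjusted p = 4.92e-15 by edgeR with Benjamini-Hochberg adjustment. All XO libraries stood far above all XX libraries. The insulin-like gene ins-31 was at 444, 422 and 421 CPM in XO, and at 1.16, 0 and 0 in XX, so that every one of its XX counts came from replicate 1. The log2 fold change was 10.15 (SE 0.42), 9.48 without XX replicate 3, and no XX count is left without XX replicate 1. F59B2.12 was at 1482, 1573 and 1458 CPM in XO and at 3.49, 0.171 and 0.557 in XX (10.09, SE 0.54), and at 11.89 without XX replicate 1. Among genes with more than 3 counts over the XX group and a mean of 10 CPM or more, the other genes of the 15 largest rises were Y51A2D.8, R53.8, clec-94, T22G5.1, F46B6.13, C09G12.5, scl-15, clec-197, C14F11.7, K03D3.5, clec-99 and K12H6.9, with log2 fold changes from 9.92 to 10.20. Only C14F11.7 of these 15 is X-linked. Without XX replicate 1 the values of Y51A2D.8, clec-94, T22G5.1, C09G12.5, scl-15, clec-197, K03D3.5, clec-99 and K12H6.9 ran from 10.93 to 12.97.

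A further 125 genes had no count in any XX library and more than 30 counts in XO, and 26 had none in XO and more than 30 in XX. The highest of the first kind was scl-9, at 62.6, 75.4 and 72 CPM in XO and at least 901-fold higher there, against a floor of 3 counts over the XX group. Those of the second kind were low in XX as well. The highest was Y48G1C.13, at 6.31, 5.29 and 5.99 CPM in XX and at least 71.5-fold higher there, against a floor of 3 counts over the XO group. Next came btb-8, a BTB-domain gene, at least 62.2-fold, fbxb-17, an F-box gene, and tbx-38, a T-box transcription factor gene, both at least 50.7-fold higher in XX. Of the 10 highest such genes, fbxb-53 was below the filter on low counts and was not tested.

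Gene families of secreted proteins moved mostly one way. In the SCP-like family, cysteine-rich secreted proteins of the CAP group, 11 of 12 tested genes (of 24) were higher in XO and none higher in XX, with a median log2 fold change of 7.85. The median depends on which members are tested: without single libraries 13 or 14 members were tested and it ran from 5.07 to 7.0, and with DESeq2 19 were tested and it was 2.99. In those settings 11 or 12 members were higher in XO and none or 1 was higher in XX. scl-7 was at 82.7, 77.1 and 75.7 CPM in XO against 1 count over the XX group, a ratio of 2969 (95% counting interval 532 to 117300). scl-15 was at 286, 272 and 264 CPM against 0.581, 0.0854 and 0.139 (9.97, and 11.09 without XX replicate 1). The family is not uniform, since scl-2 was 169 CPM in XO against 63.7 in XX (1.41, SE 0.07) and scl-6 had -0.57 (SE 0.41) and did not pass.

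Among the 121 tested C-type lectin genes (of 249), 82 were higher in XO, 22 higher in XX and 17 did not pass, with a median of 1.58. The family held large changes of both signs. clec-223 was at 0.342, 0 and 0.404 CPM in XO and at 26, 40.8 and 33.7 in XX (-7.03, SE 0.38), with -6.43 without XO replicate 2 and -7.82 without XO replicate 3. clec-222 was at 7.39, 10.5 and 9.33 CPM in XX with 2 counts over the XO group, a ratio of 166 (95% counting interval 45.5 to 1373). The abundant clec-63 differed less, at 2417, 2751 and 3028 CPM in XO and 1057, 1121 and 1138 in XX (1.31, SE 0.09).

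Of 11 tested trypsin-like protease genes (of 15), 8 were higher in XO and 3 in XX, with a median of 3.21. try-8 was at 461, 452 and 450 CPM in XO and 1.25, 0 and 0.209 in XX (9.88, SE 0.33), and at 11.82 without XX replicate 1. try-13 was at 287, 291 and 282 CPM against 0.913, 0.256 and 0.139 (9.38, SE 0.19), and at 10.46 without that library. try-11 was at 217, 234 and 222 CPM against 0.581, 0.342 and 0.348 (9.03, SE 0.12). The groups did not overlap in any of these genes, as in 61.5% of all genes tested. try-14 went the other way, at 1.25, 0.776 and 0.741 CPM in XO and 78.3, 85.6 and 83.5 in XX (-6.54, SE 0.14). try-5, whose protease is carried in seminal fluid and activates sperm, was at 23.4, 19 and 18.5 CPM in XO and 0.249, 0.427 and 0.279 in XX (5.96, SE 0.24). swm-1, the inhibitor that keeps sperm from being activated too early in males, was higher in XO as well (1.31, SE 0.12), so that both genes of this pathway moved the same way.

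**Figure D2:**
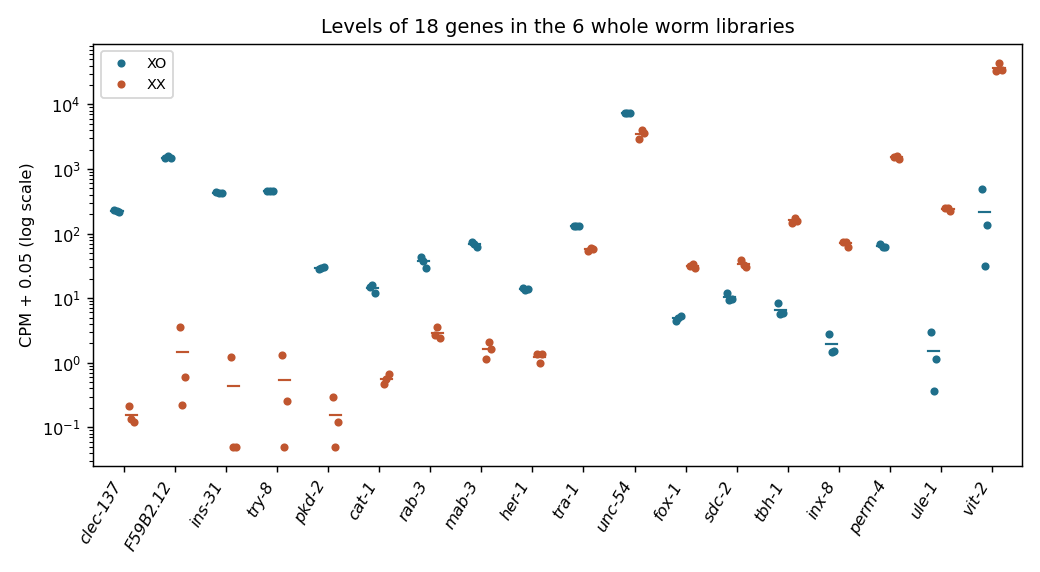
CPM with 0.05 added (log scale) of 18 genes in each of the 6 whole worm libraries, with a line at each group's mean. For all 18 the XO and XX libraries do not overlap, as for 61.5% of all genes tested. The spread within a group is widest for genes at their low level, such as vit-2 in XO and F59B2.12 in XX.

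By CPM, the 6 largest differences toward XX were in yolk genes. The 6 vitellogenins, yolk proteins made in the intestine and taken up by oocytes, were all higher in XX, with a median log2 fold change of -7.54. They took 10.2%, 12.7% and 10.8% of all gene counts in the XX libraries, and 0.174%, 0.0103% and 0.0436% in the XO libraries. vit-2 was at 32350, 43510 and 34090 CPM in XX and at 492, 30.9 and 135 in XO (-7.39, SE 1.36). vit-6, the only autosomal member, was at 42660, 58180 and 45260 CPM in XX and at 613, 29.8 and 171 in XO (-7.49, SE 1.45). The level in XO was highest in replicate 1 and lowest in replicate 2 for all 6 genes, and without XO replicate 1 their log2 fold changes ran from -9.29 to -8.59. The other members were lower but differed as much: vit-5 was at 15870, 18860 and 16530 CPM in XX and at 179, 12.4 and 41.5 in XO (-7.81, SE 1.32). vit-1, vit-3 and vit-4 had -7.14, -7.67 and -7.59. The call of vit-6 was lost without XO replicate 3 (-7.26, adjusted p = 0.055 by edgeR with Benjamini-Hochberg adjustment). With a replicate block in the fit 4 of the 6 genes passed, and vit-2 and vit-6 did not. Copies of these genes are near-identical in part, so reads may be shared or set aside.

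Genes of the reproductive tract followed. ule-1 to ule-5, named for the lumen of the uterus, were all higher in XX, while egl-13 and cog-1, transcription factor genes of uterine cells among others, did not pass. ule-1 was at 251, 251 and 222 CPM in XX and 2.97, 0.311 and 1.08 in XO (-7.56, SE 0.34). ule-3 was at 647, 635 and 615 CPM in XX and 11.9, 1.4 and 3.57 in XO (-6.99, SE 0.56). Again XO replicate 1 was the highest of the XO libraries, and without it the values of ule-1 to ule-5 ran from -9.02 to -7.69. ule-2 and ule-4 stood at -6.83 and -5.95 without XO replicate 2.

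Of 4 genes of the gonadal sheath, the contractile cells around the oocytes, inx-8 and lim-7 were higher in XX. inx-8, a gap junction gene, was at 73.7, 74.4 and 62.8 CPM in XX and 2.74, 1.4 and 1.48 in XO (-5.31, SE 0.16). lim-7, a transcription factor gene of the sheath, had -1.83 (SE 0.21). By contrast, inx-9 was higher in XO (0.90, SE 0.10), and ceh-18 did not pass. Among 7 genes of the spermatheca, fkh-6 was higher in XX (-2.73, SE 0.35), spv-1 and fln-1 were higher in XO, and 4 did not pass. Of 9 tested vulva genes (of 13), 4 were higher in XX, such as let-653, a matrix protein gene (-1.41, SE 0.21), 2 were higher in XO and 3 did not pass. With total counts as the scale, 4 vulva genes were higher in XO and 3 in XX, and without XO replicate 3 the counts were 3 and 3.

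The largest folds toward XX also took in genes outside these lists. D1086.7 was at 49.1, 66.8 and 59.5 CPM in XX and 0.456, 0 and 0.404 in XO (-7.68, SE 0.31), and was not counted in any gonad library. ZK813.2, ZK813.7, C44B7.5, Y51H7C.1, stha-3 and Y57G11B.5 had values from -7.45 to -7.21. col-135, of the cuticle collagen family described below, was at 81.4, 130 and 114 CPM in XX and 2.05, 0.0777 and 0.404 in XO (-7.27, SE 0.54). Without XO replicate 1 these 7 genes other than D1086.7 ran from -8.70 to -8.06. D1086.7 stood at -7.08 and ZK813.2 at -6.84 without XO replicate 2.

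The traces of such genes in the other sex were not equal between libraries. For 36 genes at 50 CPM or more in XX and at least 64-fold higher there, the median level in XO replicates 1, 2 and 3 was 1.62%, 0.111% and 0.591% of the XX mean. XO replicate 1 was the highest of the 3 for 35 of the 36 genes, and its median was 1.73% over the 30 genes that are not vitellogenins. For 102 genes chosen the same way in XO, the median level in XX replicates 1, 2 and 3 was 0.286%, 0% and 0.0609% of the XO mean, and XX replicate 1 was the highest or tied for 92. Among named genes that passed, leaving out XO replicate 1 moved 18 by more than 1.5 times, and leaving out XX replicate 1 moved 17. Those of the 281 named genes that did not pass were left out of these counts. The part of these traces in the fold changes was not tested.

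**Figure D3:**
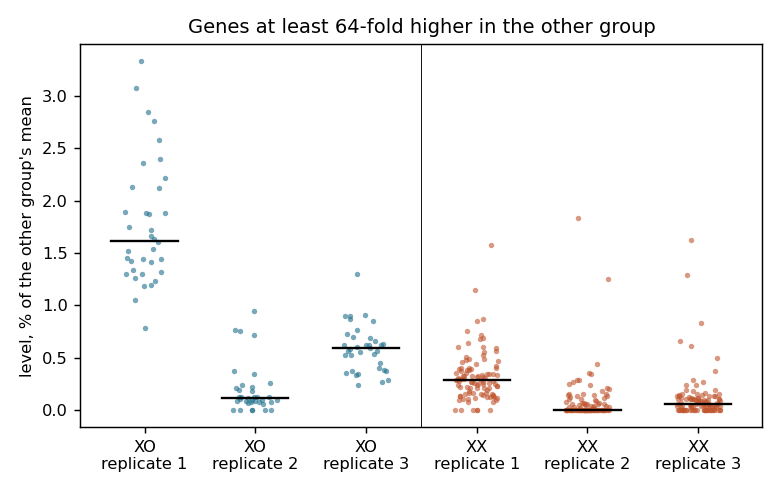
Level of each gene in single libraries as a percentage of its mean in the other group (y axis), for 36 genes at least 64-fold higher in XX (left, XO libraries) and 102 at least 64-fold higher in XO (right, XX libraries). Lines mark medians, which are 1.62%, 0.111% and 0.591% on the left and 0.286%, 0% and 0.0609% on the right.

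Genes of the male sensory neurons that carry the polycystins were high in XO. pkd-2 and lov-1 encode the polycystins through which males sense the hermaphrodite and find the vulva. pkd-2 was at 28.5, 29.7 and 29.9 CPM in XO and 0.249, 0 and 0.0697 in XX (8.0, SE 0.28, and 9.24 without XX replicate 1). lov-1 was at 18.6, 17.7 and 16.3 CPM in XO with no count in XX, which is at least 220-fold higher. Of 15 tested genes of this list (of 16), 12 were higher in XO, none was higher in XX and 3 did not pass, with a median of 3.72. cwp-1, cwp-2 and cwp-5, co-expressed with the polycystins, had 3, 3 and 2 counts over the XX group, with ratios of 299 (95% counting interval 102 to 1452), 267 (91.2 to 1300) and 190 (52.1 to 1572). The tubulin gene tba-9 (-0.56, SE 0.23), mapk-15 (0.73, SE 0.33) and ccpp-1 (0.20, SE 0.09) did not pass.

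Genes shared by many ciliated neurons moved less. Of 24 tested genes of the cilium and of transport within it (of 36), 15 were higher in XO, none was higher in XX and 9 did not pass, with a median of 0.88, near the 0.75 of all genes low in both gonads. nphp-4, a transition zone gene, was at 2.17, 1.63 and 1.62 CPM against 0.249, 0.427 and 0.279 (2.45, SE 0.39), and che-10, a rootlet gene, at 64.5, 62.1 and 65.7 against 38.9, 47.6 and 44 (0.56, SE 0.08).

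Most genes used by all neurons were higher in XO too. Of 17 tested, 13 were higher in XO, 1 was higher in XX and 3 did not pass, with a median of 1.46. Over all genes tested 29.2% were higher in XO. Only 3 of the 17 were under 1 CPM in both gonad groups, so the median of 0.75 for that class covers few of them. rab-3, a synaptic vesicle GTPase gene, was at 43.7, 38 and 29.6 CPM in XO and 2.66, 3.5 and 2.37 in XX (3.70, SE 0.19). snt-1, a synaptotagmin gene, was at 29.9, 28.5 and 25.6 against 3.15, 3.93 and 4.04 (2.90, SE 0.14), and egl-3, which encodes a protease that matures neuropeptides, had 1.5 (SE 0.08). The groups did not overlap in any of these genes, as in 61.5% of all genes tested. unc-119 went the other way (-0.52, SE 0.10).

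All 31 FMRFamide-like peptide genes were higher in XO, from 0.64 (flp-28) upward, with a median of 1.55. flp-23 was at 8.21, 9.71 and 8.02 CPM in XO with 1 count over the XX group, a ratio of 330 (95% counting interval 58.8 to 13080). Of 63 tested neuropeptide-like genes (of 77), 52 were higher in XO and 5 in XX, with a median of 1.49. nlp-45 was at 22.6, 19.9 and 19.3 CPM against 0.249, 0.171 and 0.209 (6.54, SE 0.23). The genes higher in XX included nlp-24, nlp-26, nlp-28 and nlp-29, of which nlp-29 is an antimicrobial peptide gene of the epidermis. Of 17 tested insulin-like genes (of 40), 13 were higher in XO, such as ins-7 at 17.8, 15.3 and 11.6 CPM against 1.08, 2.22 and 1.74 (3.13, SE 0.24), and ins-34 alone was higher in XX (-1.78, SE 0.20).

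Among 10 tested genes that act in male mating or mate searching (of 13), 9 were higher in XO. ntc-1, the oxytocin and vasopressin relative, did not pass. The list median was 1.19, beside 0.75 for all genes under 1 CPM in both gonad groups, of which 54.4% were higher in XO. Only 3 of the 10 lay above the upper quartile of that class (1.57). pdf-1, whose peptide drives mate searching, was at 51, 52.5 and 46.4 CPM against 17.1, 16 and 14.5 (1.66, SE 0.10). flp-20 had 2.15 (SE 0.22) and flp-12 had 1.90 (SE 0.14). Of 8 monoamine genes 6 were higher in XO, 1 was higher in XX and 1 did not pass. The vesicular transporter gene cat-1 was at 14.9, 15.8 and 12.1 CPM in XO and 0.415, 0.512 and 0.627 in XX (4.74, SE 0.24), while tbh-1, whose enzyme makes octopamine and which is on in sheath cells as well as in neurons, was at 8.33, 5.67 and 5.87 in XO and 147, 176 and 157 in XX (-4.63, SE 0.12). In gonads tbh-1 was at 0.426 CPM in XO and 168 in XX. Of 5 tested genes of egg laying signals (of 6), 4 were higher in XO, with a list median of 1.64. Among them were flp-17 (2.51, SE 0.15) and nlp-2 (3.51, SE 0.22). egl-6, the receptor gene for peptides that hold back egg laying, was higher in XX (-2.92, SE 0.38).

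Genes that pattern the male tail and its rays were higher in XO in 8 of 12 tested cases (of 15), with 3 higher in XX and a median of 0.95, beside 54.4% and 0.75 for all genes low in both gonads. The posterior Hox genes egl-5 and mab-5, which set ray identity, were at 8.44, 8.39 and 10.2 CPM against 0.913, 1.28 and 0.905 (3.13, SE 0.22), and at 7.99, 7.07 and 6.67 against 0.913, 0.939 and 1.39 (2.70, SE 0.23). nob-1 (1.47, SE 0.18) and php-3 (0.85, SE 0.14) were higher too, while lin-39, the Hox gene of the vulval region, did not pass (0.37, SE 0.19).

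Muscle genes were higher in XO in 11 of 14 tested cases (of 15), with a median of 0.70. This is not above the 0.75 of all genes low in both gonads, but 0 of the 14 belong to that class. Genes at 5 CPM or more in either gonad group had a median of -0.08. The major myosin gene unc-54 was at 7290, 7335 and 7368 CPM in XO and 2937, 4030 and 3638 in XX (1.05, SE 0.12), and the paramyosin gene unc-15 had 1.02 (SE 0.10). tni-3, a troponin I gene, stood out from the list at 310, 293 and 307 CPM against 36.9, 42.5 and 41.5 (2.91, SE 0.07), and tni-1 was higher in XX (-0.59, SE 0.17). The myosin gene myo-3 was at 217, 148 and 146 CPM in XO and 178, 199 and 213 in XX, and did not pass. Of 7 tested pharynx genes (of 10), 5 were higher in XO and 2 in XX, and of the 2 coelomocyte genes unc-122 was higher in XO and cup-4 did not pass. Of 6 tested epidermal genes (of 11), 2 were higher in XO, 1 was higher in XX and 3 did not pass.

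**Figure D4:**
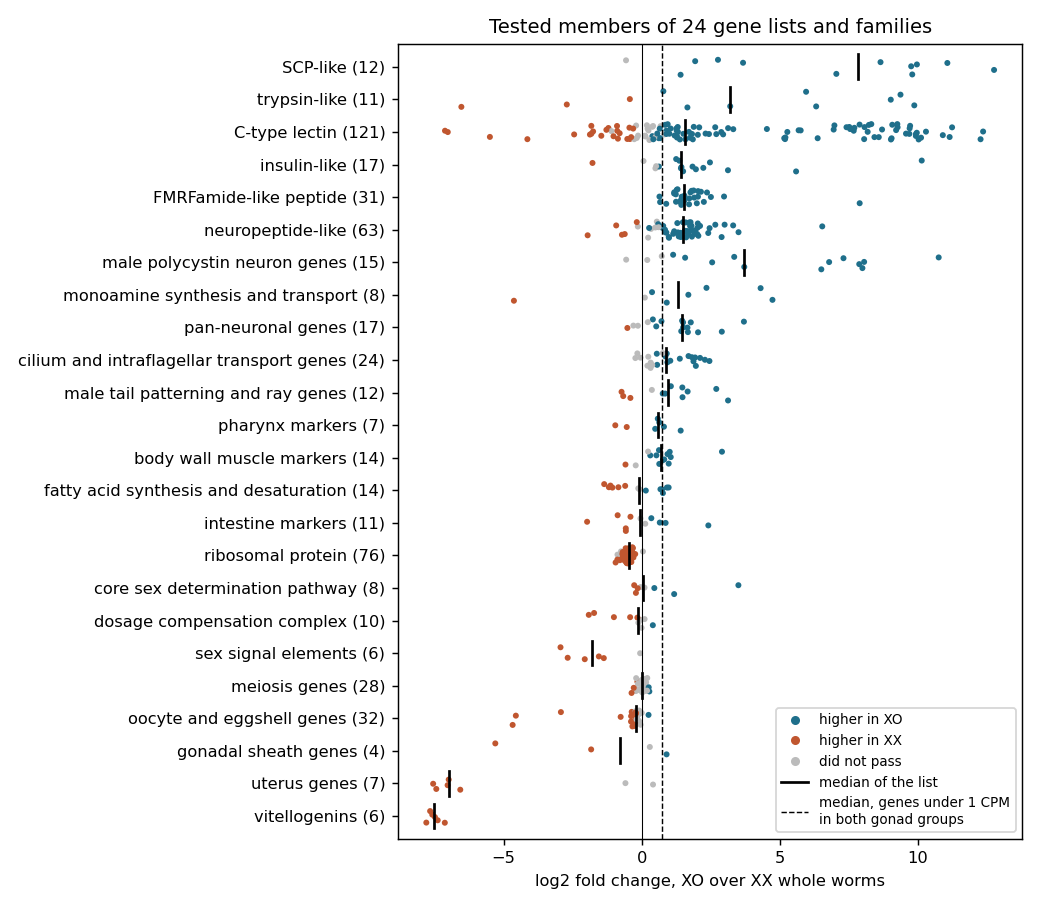
Log2 fold change of XO over XX (x axis) for the tested members of 24 gene lists and families, each with its number of tested genes. Black bars mark list medians, from -7.54 for vitellogenins to 7.85 for SCP-like genes (5.07 to 7.0 without single libraries, when more members were tested), and the dashed line marks 0.75, the median of genes under 1 CPM in both gonad groups.

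Oocyte genes differed little beside the yolk genes. Of 32 oocyte and eggshell genes, 22 were higher in XX, 1 was higher in XO and 9 did not pass, but the median was only -0.22 and 3 differed by 2-fold or more. With total counts as the scale this lean was gone, with 4 members higher in XO, 4 higher in XX and a median of 0.0141. perm-2 and perm-4, of the permeability barrier of the eggshell, were the exceptions: perm-4 was at 68.1, 62.2 and 62.8 CPM in XO and 1521, 1614 and 1418 in XX (-4.56, SE 0.08), and perm-2 had -4.68 (SE 0.09). meg-1, an X-linked germ granule gene, had -2.93 (SE 0.08). The yolk receptor gene rme-2 was at 918, 972 and 1051 CPM in XO and 1232, 1248 and 1236 in XX (-0.34, SE 0.07). The whole list took 2.27% ± 0.0473 of counts in XO and 2.54% ± 0.102 in XX libraries (SD, n = 3 each, exact permutation p = 0.1).

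Of 28 meiosis genes, 2 were higher in XO, 3 higher in XX and 23 did not pass, and none differed by 2-fold. With total counts as the scale 18 were higher in XO and none in XX, with a median of 0.26. The number that passed was 3 without XO replicate 2, 1 without XX replicate 1, 3 without XX replicate 2 and 2 without XX replicate 3. Among 7 germline stem cell genes, lst-1 (-0.37, SE 0.07) and the Notch receptor gene glp-1 (-0.22, SE 0.06) were higher in XX and 5 did not pass. With total counts as the scale glp-1 had 0.0161, and 2 genes were higher in XO and none in XX.

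Sperm genes were near the limit of detection. Only 7 of 24 spermatogenesis genes outside the major sperm proteins were tested, of which spe-15, fer-1 and gsp-4 were higher in XO and spe-44 was higher in XX (-0.33, SE 0.11). The call of spe-44 was lost without XO replicate 3 (-0.30). gsp-4, a sperm phosphatase gene, was at 2.28, 1.17 and 1.75 CPM in XO and 0.166, 0.0854 and 0.139 in XX (3.59, SE 0.50). Of 30 major sperm protein genes, 4 were tested and all 4 were higher in XO. The family summed to 9.94 to 26.2 CPM in XO libraries and 0.768 to 4.60 in XX libraries. The filter on low counts can be met by 1 group alone and so favours members high in XO. The direction of these 4 is therefore a description only. msp-36 was at 3.31, 0.776 and 2.16 CPM in XO and 0, 0 and 0.557 in XX. The number of these genes that passed was 8 without XO replicate 2 or without XX replicate 1, and 7 without XX replicate 3. Their copies are near-identical, so reads may be shared or set aside.

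By difference of level rather than fold, the genes furthest above XX in XO were unc-54, clec-63, F59B2.12, unc-15, C17F4.7, F46H5.3, icl-1, npa-1, T21H3.1 and asp-1. npa-1, which encodes a lipid-binding polyprotein, was at 1667, 1659 and 1628 CPM in XO and 705, 833 and 810 in XX (1.08, SE 0.08). icl-1, a glyoxylate cycle enzyme gene, was at 1242, 1809 and 1635 CPM in XO and 470, 925 and 625 in XX (1.21, SE 0.30). Its call was lost without XO replicate 2 (1.09), XO replicate 3 (1.17) or XX replicate 3 (1.16).

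Intestinal genes showed no common direction. Of 11 markers, 4 were higher in XO, 5 higher in XX and 2 did not pass, with a median of -0.04. The peptide transporter gene pept-1 was at 13.1, 12.5 and 15.3 CPM in XO and 63, 45.4 and 53.8 in XX (-1.98, SE 0.13), and the ferritin gene ftn-1 was at 29.1, 53.9 and 53.4 in XO and 11.3, 8.54 and 6.27 in XX (2.42, SE 0.34). The esterase gene ges-1 did not pass (-0.04, SE 0.10). Of 9 regulators of yolk gene transcription 3 were higher in XO, 3 higher in XX and 3 did not pass. ceh-60, a homeobox gene that promotes it, was at 0.57, 0.233 and 0.742 CPM in XO and 5.23, 4.35 and 5.92 in XX (-3.29, SE 0.33). lin-29, a heterochronic transcription factor gene, was at 16.8, 14.8 and 16.2 against 4.23, 3.5 and 4.81 (1.92, SE 0.15), and elt-2 and pqm-1 did not pass.

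Fatty acid genes moved in both directions. Of 14 tested (of 15), 6 were higher in XO, 6 higher in XX and 2 did not pass. The synthesis genes fasn-1 (-1.19, SE 0.08) and pod-2 (-0.60, SE 0.07), the elongase genes elo-2 (-1.06, SE 0.16), elo-5 (-1.36, SE 0.19) and elo-6 (-0.84, SE 0.22) and the regulator sbp-1 (-1.13, SE 0.12) were higher in XX. The desaturase genes fat-1 (0.74, SE 0.07), fat-2 (0.68, SE 0.07), fat-3 (0.91, SE 0.08), fat-4 (0.77, SE 0.06) and fat-5 (0.98, SE 0.15) and the regulator gene mdt-15 (0.15, SE 0.06) were higher in XO. The call of mdt-15 was lost without XO replicate 1 or 2, or without XX replicate 1, 2 or 3 (0.11 to 0.16). That of elo-6 was lost without XO replicate 3 (-0.81), XX replicate 1 (-0.74) or XX replicate 3 (-0.81). The elongase gene elo-1 (-0.08, SE 0.06) and the desaturase gene fat-6 (-0.12, SE 0.19) did not pass, and fat-7 was not tested. fasn-1 was at 194, 165 and 152 CPM in XO and 376, 381 and 404 in XX, and fat-2 at 1002, 1055 and 1052 in XO and 625, 647 and 669 in XX.

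Of 76 tested ribosomal protein genes (of 78), 73 were higher in XX and 3 did not pass (rpl-24.2, rpl-37 and rpl-39). The median was -0.47, a small shift in a family that took 7.43%, 7.78% and 9.04% of counts in XO and 9.61%, 9.64% and 9.68% in XX libraries. With total counts as the scale 46 members passed in all. Cuticle collagens took 4.66% ± 0.322 of counts in XO and 4.48% ± 0.364 in XX libraries (SD, n = 3 each, exact 2-sided permutation p = 0.7), and of 97 tested (of 158) 43 were higher in XO and 23 in XX. With a minimum count of 50 the collagen counts turned to 16 and 20.

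The sex determination pathway differed at its ends. her-1, the secreted male signal, was at 14.1, 13.2 and 14 CPM in XO and 1.33, 0.939 and 1.32 in XX (3.5, SE 0.19). tra-1 was at 130, 132 and 129 CPM in XO and 54, 59.9 and 58.6 in XX (1.18, SE 0.06), so its mRNA was the higher in male bodies. fem-3 was higher in XO (0.46, SE 0.10), tra-2 (-0.27, SE 0.06), fem-2 (-0.21, SE 0.06) and sel-10 (-0.15, SE 0.06) were higher in XX, and tra-3 and fem-1 did not pass. With total counts as the scale tra-2 no longer passed (-0.04) and fem-2 (0.0258) and sel-10 (0.0933) changed sign. sel-10 was lost without XO replicate 2 (-0.15) or 3 (-0.14), or without XX replicate 2 (-0.13) or 3 (-0.15). mab-3, a male DM-domain factor gene, was at 73.1, 67.7 and 62.4 CPM against 1.08, 2.05 and 1.6 (5.41, SE 0.15). dmd-3, which drives shaping of the male tail tip, was at 1.14, 2.95 and 2.29 against 0.083, 0.341 and 0 (3.96, SE 0.64), and from 3.31 to 5.52 without XX replicate 3 or 2. Of 7 tested DM-domain genes 4 were higher in XO and 1 in XX. 

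Of 6 genes that count X chromosomes or respond to the count, 5 were higher in XX and sea-2 did not pass. None of the 6 was under 1 CPM in both gonad groups. Over all genes tested 24.2% were higher in XX. Among X-linked genes at 5 CPM or more in either gonad group 80.5% were, with a median of -1.10. The X-linked elements sex-1 (-2.94, SE 0.13), fox-1 (-2.68, SE 0.13) and ceh-39 (-2.06, SE 0.10) and the autosomal sea-1 (-1.55, SE 0.11) differed by more than 2-fold. xol-1, the switch that is on in XO embryos, was at 0.684, 2.17 and 0.809 CPM in XO adults and 3.57, 3.33 and 2.93 in XX adults (-1.37, SE 0.36), with -2.10 without XO replicate 2. In the dosage compensation complex 5 of 10 genes were higher in XX, beside 24.2% of all genes tested, and 1 was higher in XO. With total counts as the scale the counts were 4 and 4. None of the 10 was under 1 CPM in both gonad groups. X-linked and autosomal members of the complex were not counted apart. sdc-2, which starts its assembly in XX, was at 12, 9.47 and 9.5 CPM in XO and 38.4, 32.4 and 30.4 in XX (-1.73, SE 0.13). sdc-1 (-1.92, SE 0.13) and sdc-3 (-1.01, SE 0.12) were higher in XX as well, dpy-21 was higher in XO (0.40, SE 0.08), and the shared condensin genes mix-1 and capg-1 did not pass.

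Genes of the X chromosome and of autosomes were set side by side in classes by gonad level. Over all tested genes the median log2 fold change was -0.16 for 1716 X-linked and 0.03 for 10372 autosomal genes. Among genes at 5 CPM or more in either gonad group it was -1.10 for 620 X-linked genes, of which 499 were higher in XX and 46 in XO, and -0.06 for 5888 autosomal genes. X-linked genes could enter this class through the XX gonads alone, so its values are a description, and the class by the XO gonads alone is given as well. Among genes at 5 CPM or more in XO gonads the median was -0.92 for 204 X-linked genes, of which 149 were higher in XX and 25 in XO, and -0.06 for 5623 autosomal genes. In the class under 1 CPM in both gonad groups it was 0.57 for 772 X-linked genes, of which 367 were higher in XO and 107 in XX, and 0.82 for 3033 autosomal genes. XX gonad replicate 1 stood apart from the other XX gonads, and without it the medians of the class by either gonad group were -1.11 and -0.07.

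Within single libraries, the gap between the median log2 CPM of X-linked and of autosomal genes was -1.84, -1.89 and -1.86 in XO and -1.28, -1.22 and -1.25 in XX libraries. For genes at 5 CPM or more in XO gonads it was -0.81, -0.81 and -0.68 in XO and 0.25, 0.35 and 0.27 in XX, a difference of -1.05. For genes under 1 CPM in both it was -0.04, -0.10 and -0.05 in XO and 0.24, 0.33 and 0.28 in XX, a difference of -0.35. The groups did not overlap in any of the 3 measures, and the exact 2-sided permutation test gave p = 0.1 for each, the smallest it can give. The share of counts in X-linked genes was 6.50% ± 0.118 in XO and 13.1% ± 0.779 in XX libraries (SD, n = 3 each), a share that includes the 5 X-linked vitellogenins.

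**Figure D5:**
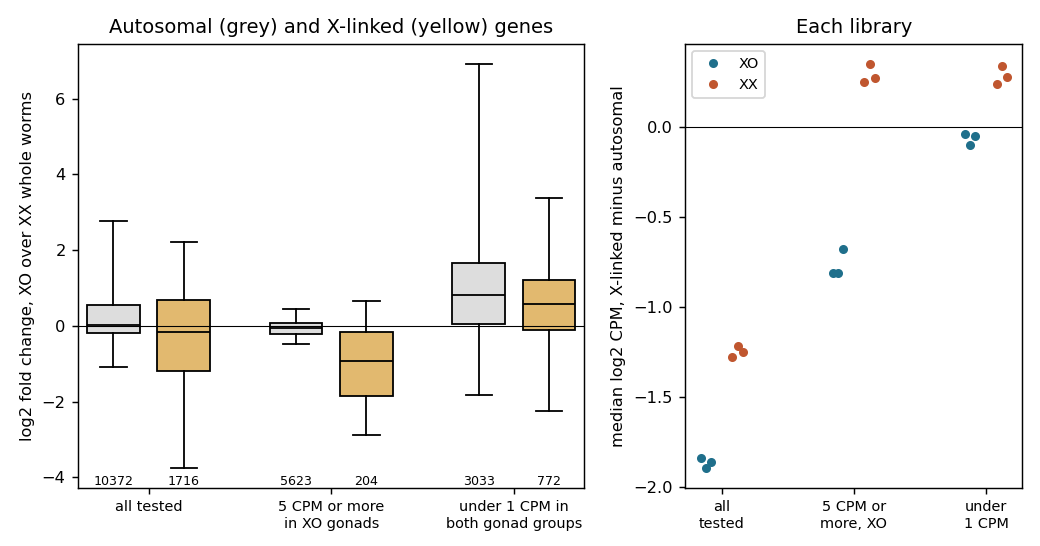
Left, log2 fold change of XO over XX for autosomal and X-linked genes over all tested genes, genes at 5 CPM or more in XO gonads and genes under 1 CPM in both gonad groups (boxes are quartiles, whiskers the 5th and 95th percentiles, numbers the genes). Right, median log2 CPM of X-linked minus autosomal genes in each library, where the XO libraries lie below the XX libraries in every class.

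The remaining gene families moved in both directions. Over all genes tested 29.2% were higher in XO and 24.2% in XX, and over genes under 1 CPM in both gonad groups 54.4% and 13%. Of 143 tested nuclear hormone receptor genes (of 278), 34 were higher in XO, 24 higher in XX and 85 did not pass. The split was 18 to 21 with DESeq2, 23 to 25 without XO replicate 3, 23 to 23 without XX replicate 2 and 56 to 17 with total counts as the scale. nhr-76 was at 2.85, 2.1 and 2.36 CPM in XO and 24.7, 14.9 and 16.5 in XX (-2.96, SE 0.23). Of 51 UDP-glucuronosyltransferase genes 27 were higher in XO and 6 in XX, and ugt-43 was at 90.6, 74.5 and 71.7 CPM against 3.32, 2.22 and 1.46 (5.10, SE 0.19). Of 10 lysozyme genes 7 were higher in XO and 3 in XX, with ilys-2 at 79.6, 73.1 and 80 CPM against 1.74, 1.45 and 2.86 (5.22, SE 0.15), and ilys-5 at 146, 159 and 189 against 507, 557 and 486 (-1.64, SE 0.09).

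Homeobox genes of the ceh series and Skp1-related genes, adaptors of ubiquitin ligases, leaned toward XX. Among 33 ceh genes 17 were higher in XX and 6 in XO, for example ceh-32 at 4.22, 2.95 and 3.17 CPM in XO and 29.1, 26 and 22.3 in XX (-2.93, SE 0.16). Among 19 Skp1-related genes 11 were higher in XX and 3 in XO, with skr-10 at 2.17, 1.79 and 3.37 CPM against 30.3, 23.1 and 22.5 (-3.33, SE 0.21). Acetylcholine receptor subunit genes were higher in XO in 7 of 10 tested cases and in none higher in XX, with a median of 1.07. For twk potassium channel genes it was 15 of 26 with 1 higher in XX and a median of 0.81, and for degenerin and acid-sensing channel genes 8 of 14 with 1 higher in XX and a median of 0.84. The last 2 families are close to all genes low in both gonads, of which 54.4% were higher in XO with a median of 0.75.

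The counts of genes higher in XO and in XX were 20 and 7 of 45 for transthyretin-like genes, 16 and 10 of 41 for cytochrome P450 genes, and 7 and 5 of 31 for glutathione S-transferase genes (6 and 7 without XX replicate 3). They were 23 and 11 of 74 for fbxa F-box genes, 8 and 2 of 14 for warthog or groundhog-like genes, and 10 and 1 of 24 for histone genes. The shares over all genes tested were 29.2% higher in XO and 24.2% higher in XX, so several of these counts are near them. Histone copies are near-identical, so part of their reads may be lost among those with several places, which were not counted. Of 1301 chemoreceptor genes 13 were tested, of which 5 were higher in XO and 2 in XX, so most were below the depth of these libraries.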

How the data were processed

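Poly(A) RNA of 6 whole worm libraries was analysed, with 6 gonad libraries used to class genes. The authors deposited raw read counts per gene. Tools named in the submitters' processing notes are TopHat2 2.0.12, HTSeq, Cufflinks 2.2.0, CASAVA 1.8 and SAMtools 1.2. Build, annotation and strand setting are not given in the sources used here. Overlapping or antisense genes may therefore share reads. Lines that name no gene were left out. They held, in whole worms, 12.8% to 20.3% (reads with several places), 4.42% to 6.42% (no gene) and 0.728% to 0.89% (several genes) of reads. Of 20389 rows, 19899 matched a gene of the WBcel235 annotation, and 490 did not.

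The 6 libraries were fitted alone with edgeR 4.0.16 in R 4.3.3 (trimmed mean of M-values, filterByExpr at 10 counts, 2-sided robust quasi-likelihood tests, Benjamini-Hochberg adjustment over all genes). SE is the log2 fold change over the root of F. Positive is XO over XX. A gene near 0 in 1 group could meet the filter through the other group alone. Counts by direction in families of such genes are descriptions only. A fold against 0 counts uses a floor of 3 counts over the group. With 1 to 3 counts an exact 95% interval on the ratio is given. Intervals and floors cover counting error only, since amplified reads are not independent molecules. Medians of log2 CPM added 0.5. Gonad CPM was scaled by library total. Single values were compared by exact 2-sided permutation (scipy 1.17.1). The fit was tested on simulated data.

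The rule for named genes took 15 genes per direction by fold (passing, 2-fold, no overlap, mean of 10 CPM, over 3 counts in the lower group), the 10 largest CPM differences, the 10 highest with 0 counts in a group, and up to 8 members per list at 1 CPM or more (all members of lists of up to 16). her-1, tra-1, tra-2, fem-3, xol-1, fog-1, fog-3, mab-3 and dmd-3 were always included. Family genes outside this rule, and rme-2, gsp-4, ntc-1 and unc-119, were picked after their values were seen. The libraries, 29 lists and 25 families were chosen with earlier results of these data known. All 25 families are reported, the vitellogenin family being the list of that name. Alternatives were other scalings, filters, DESeq2 1.42.0, a replicate block, a fit on all 12 libraries and each library left out. Scaling on autosomal genes and classes by gonad level were added after the data were seen.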

Additional observations from a re-analysis of the deposited data

How the results depend on the processing

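Over all settings, 859 of 907 recomputed counts and summary values stayed close to the reported value (counts within 1.5 times) and 48 moved further. For lists this compared the number of passing members and not their direction, so a change of direction could count as close. With total counts as the scale, germline stem cell genes went from 0 higher in XO and 2 in XX to 2 and 0. Core sex determination genes went from 3 and 3 to 5 and 0. Of 3899 values of 281 named genes, 3641 stayed on their side of the threshold, 189 lost and 57 gained a call.

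Scaling by total gene counts shifted the median log2 fold change by 0.24 and gave 5842 genes higher in XO and 1585 in XX (78.7% against 54.8% of calls higher in XO). Passing members became 8 for oocyte (4 per direction), 18 for meiosis (all higher in XO), 2 for coelomocyte, 11 for chemoreceptor and 46 for ribosomal protein genes. Log2 fold changes that turned positive and passed under either scale were sea-2 (0.18), fem-1 (0.20), fem-2 (0.0258), sel-10 (0.0933), dpy-26 (0.20), dpy-28 (0.23), dpy-30 (0.0795), unc-62 (0.0296), him-17 (0.0809), glp-1 (0.0161), sygl-1 (0.22) and elo-1 (0.16). Total counts include the yolk genes, which took 10.2% to 12.7% of XX counts. A further 15 turned sign without passing under either scale. Under all other settings 38 named values turned sign, and none of them passed in either fit.

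The fit on all 12 libraries, whose biological coefficient of variation was 0.194 against 0.0845, gave 5032 calls, of which 1680 were higher in XX. Passing members became 3 for core sex determination, 3 for dosage compensation, 8 for oocyte, 3 for meiosis, 5 for intestine, 3 for pharynx and 34 for ribosomal protein genes. DESeq2 gave 6208 calls, with 7 spermatogenesis, 3 meiosis, 11 major sperm protein and 14 chemoreceptor genes passing. A minimum count of 50 left fewer genes to test. It gave 3 DM-domain, 7 polycystin neuron, 4 cilium, 2 spermatogenesis, 0 coelomocyte, 36 collagen, 4 glutathione S-transferase, 0 major sperm protein, 17 fbxa, 1 chemoreceptor, 9 twk, 5 histone, 15 homeobox, 2 acetylcholine receptor and 4 degenerin genes passing, and an X-linked minus autosomal median of -0.33. With no filter this median was -0.0749, and 8 spermatogenesis, 15 major sperm protein and 26 chemoreceptor genes passed. With only genes counted in every library the per-library X difference was -0.53. Causes were not tested where the setting does not change the genes or samples fitted.

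Leaving out each library gave 5830 to 6518 calls, with 1 to 5 meiosis and 3 to 8 major sperm protein genes passing. Same-numbered XO and XX libraries did not deviate together (correlations -0.019, 0 and -0.01), so the numbers were not treated as pairs. With the replicate block 6244 genes passed, with 3 meiosis genes, and vit-2 and vit-6 did not pass (adjusted p of 0.053 and 0.06 by edgeR with Benjamini-Hochberg adjustment). Depth limits genes near 1 CPM, including most chemoreceptor and sperm genes.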
